A study of Mus musculus with 8 samples.

Results

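The genes described here are 9 markers of enteric neurons, the nerve cells that lie within the wall of the gut: Stmn2, Uchl1, Nos1, Chat, Vip, Tubb3, Elavl4, Ret and Prph. They were taken by name from the 55418 gene symbols of the table, and all 9 were among the 17522 genes that had enough counts to test. RNA of the distal colon was sequenced from 8 C57BL/6 mice aged 8 to 10 weeks, 2 in each of 4 groups: NAIL-ΔNFκB mice given dextran sulfate sodium (DSS), NAIL-ΔNFκB mice left untreated, wild-type (WT) mice given DSS, and WT mice left untreated. DSS, which injures the lining of the colon and brings on colitis, was drunk at 3% for 4 days and followed by 4 days of plain water. NAIL is a long noncoding RNA locus, and ΔNFκB (written without the prefix below) is the altered form carried by the first pair of groups. The labels do not say which bases the alteration removes or changes, and they name no cell type to which it is restricted. No deletion or agent is stated to be shared by all 4 groups.

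Enteric neurons arise from neural crest cells that migrate into the embryonic gut, and that migration depends on the receptor tyrosine kinase Ret and its ligand GDNF. In the adult they sit in the myenteric plexus, between the layers of the muscle coat, and in the submucosal plexus, where they drive peristalsis, secretion and blood flow. Cholinergic neurons, which make acetylcholine with the enzyme choline acetyltransferase (Chat), mostly excite the muscle, whereas inhibitory neurons relax it with nitric oxide, made by the neuronal nitric oxide synthase (Nos1), and with the peptide Vip. The remaining members mark neurons in general: Tubb3 is the neuronal β-tubulin, Stmn2 regulates microtubules in growing and regenerating axons, Prph is the intermediate filament of peripheral neurons, Uchl1 is the ubiquitin hydrolase known as PGP9.5, and Elavl4 encodes the RNA-binding protein HuD.

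Depth was 9229639 to 16935723 counts a library, and mice of the same group correlated at 0.974 to 0.981 (Pearson r of log2 CPM across genes, which are not independent replicates). By Y-linked transcripts the ΔNFκB untreated pair and replicate 2 of the WT untreated group were male, and the other 5 mice, with all 4 given DSS, were female. Among ΔNFκB mice alone, sex and DSS therefore cannot be told apart. Only the WT untreated group held both sexes, so the term for sex used below is estimated from its 2 mice alone. Ribosomal RNA and related genes took 3.46% to 6.70% of the counts after DSS, against 0.687% to 1.83% without it. Levels below are CPM, counts scaled for library size and composition, and differences are log2 fold changes ± standard error (SE) from a single edgeR quasi-likelihood model with 1 mean per group. A gene is said to have risen or fallen where its Benjamini-Hochberg adjusted p over all 17522 genes was under 0.05.

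All 9 are protein-coding genes, and their places follow GENCODE on GRCm38. The transmitter genes are Nos1 (ENSMUSG00000029361) at chr5:117781032-117958840 on the plus strand, Chat (ENSMUSG00000021919) at chr14:32408203-32465989 on the minus strand and Vip (ENSMUSG00000019772) at chr10:5639218-5647617 on the plus strand. The developmental receptor is Ret (ENSMUSG00000030110) at chr6:118151745-118197718 on the minus strand. Of the general neuronal genes, Stmn2 (ENSMUSG00000027500) at chr3:8509360-8561606 on the plus strand and Tubb3 (ENSMUSG00000062380) at chr8:123411424-123422015 on the plus strand encode microtubule proteins, and Prph (ENSMUSG00000023484) at chr15:99055174-99058978 on the plus strand encodes a filament. The last are Uchl1 (ENSMUSG00000029223) at chr5:66676091-66687234 on the plus strand and Elavl4 (ENSMUSG00000028546) at chr4:110203722-110351909 on the minus strand. Merged exons overlap those of other genes by 18.1% for Uchl1, by 2.40% for Nos1 and by 0 bases for the other 7.

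Start sites of 4 members are shown because they set a pair of transmitter genes beside a pair of general neuronal genes that moved with them; the windows run from 250 bases before to 50 after the start, 5′ to 3′ on the gene's strand, from RefSeq on GRCm38.p6. Capitals mark TGACG or its reverse complement CGTCA, the core of the cAMP response element, and TATAAA, the TATA box.
Vip, chr10:5638968-5639267, plus strand: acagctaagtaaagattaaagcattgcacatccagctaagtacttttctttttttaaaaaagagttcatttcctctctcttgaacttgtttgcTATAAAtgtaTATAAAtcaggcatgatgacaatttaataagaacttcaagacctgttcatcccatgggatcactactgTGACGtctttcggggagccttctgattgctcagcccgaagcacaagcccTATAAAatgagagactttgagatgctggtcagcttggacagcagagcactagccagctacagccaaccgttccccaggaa
Chat, chr14:32465860-32466159, minus strand: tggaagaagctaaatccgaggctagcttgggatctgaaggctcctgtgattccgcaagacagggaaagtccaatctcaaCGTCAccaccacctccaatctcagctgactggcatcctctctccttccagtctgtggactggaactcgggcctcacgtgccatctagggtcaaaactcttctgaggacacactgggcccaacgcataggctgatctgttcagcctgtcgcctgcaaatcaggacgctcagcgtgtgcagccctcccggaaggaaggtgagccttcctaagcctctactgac
Prph, chr15:99054924-99055223, plus strand: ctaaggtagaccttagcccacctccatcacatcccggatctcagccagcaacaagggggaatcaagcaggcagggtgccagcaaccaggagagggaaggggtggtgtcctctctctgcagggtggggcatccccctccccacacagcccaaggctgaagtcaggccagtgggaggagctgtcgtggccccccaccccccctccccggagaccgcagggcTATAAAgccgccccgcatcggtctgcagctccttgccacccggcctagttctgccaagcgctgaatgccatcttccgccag
Uchl1, chr5:66675871-66676170, plus strand: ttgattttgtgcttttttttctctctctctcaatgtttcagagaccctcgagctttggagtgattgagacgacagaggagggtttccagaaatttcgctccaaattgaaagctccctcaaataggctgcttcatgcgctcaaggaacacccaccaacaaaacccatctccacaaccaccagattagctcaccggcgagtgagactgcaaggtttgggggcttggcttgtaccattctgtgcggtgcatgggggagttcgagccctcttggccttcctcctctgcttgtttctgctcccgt

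RefSeq windows were used for 7 of the 9 members, without Stmn2 and Ret. The Vip window held TGACG once, 79 bases before the start, and TATAAA 3 times, of which the nearest began 30 bases before the start. The Chat window held the reverse complement of TGACG, beginning 171 bases before the start, and the Prph window held TATAAA 31 bases before the start. The Uchl1 window held neither. On both strands, TGACG occurred in 20.8% and TATAAA in 13.6% of 32851 windows of the same length, and the 7 members' windows held no full TGACGTCA (1.79% of windows) and no TTCAGCACC or GGACAGCG, the left and right parts of the REST element (0.371% and 1.26%). TGACG was also present for Nos1 and Elavl4. A match of letters is a description and not a binding site.

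**Figure D1:**
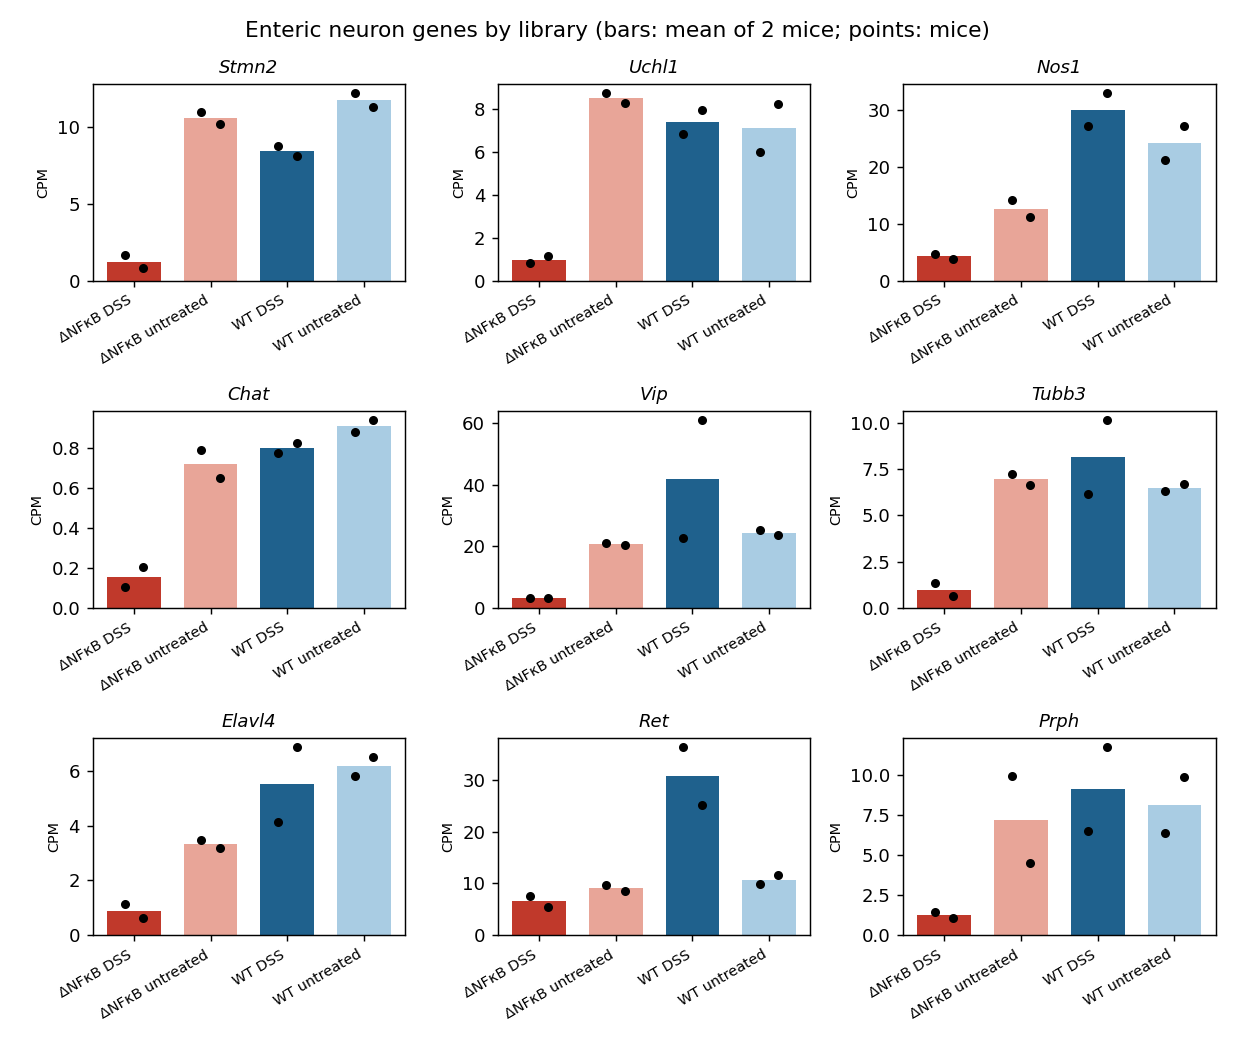
CPM of each member on its own linear axis, with bars for the mean of 2 mice and points for the mice, in the order ΔNFκB DSS, ΔNFκB untreated, WT DSS and WT untreated. The ΔNFκB DSS bar is the lowest in all 9 panels, and Ret stands highest in WT DSS mice.

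Enteric neuron transcripts were scarce in the colon of ΔNFκB mice after DSS, whereas none of the 9 was called lower in WT mice after DSS. The CPM of the 9 members summed to 21.9 and 17.0 in ΔNFκB DSS mice, 86.1 and 73.7 in ΔNFκB untreated mice, 119.6 and 165.1 in WT DSS mice, and 94.1 and 106.0 in WT untreated mice. ΔNFκB DSS mice thus stood apart from the other 6 mice, which ranged from 73.7 to 165.1. In whole tissue, fewer neurons and less of these RNAs per neuron cannot be told apart.

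Between ΔNFκB DSS and ΔNFκB untreated mice, 8 of the 9 members fell, where 19.2% of all genes tested did so (35.4% passed in either direction). The median over the 9 members was -2.54 on the log2 scale, against -0.04 over all genes tested, and in all 9 both DSS mice lay below both untreated mice. The share of all genes that separated in this way was not counted. Among the transmitter genes, Vip was at 3.18 and 3.30 CPM in ΔNFκB DSS mice and at 21.0 and 20.6 CPM in ΔNFκB untreated mice. The replicates of each group were close together and the groups lay far apart, with a log2 fold change of -2.68 ± 0.44 (adjusted p = 0.00278), or 6.40-fold lower. Nos1 was at 4.71 and 3.81 CPM in ΔNFκB DSS mice and at 14.2 and 11.1 CPM in ΔNFκB untreated mice, and its fall of -1.57 ± 0.23 (adjusted p = 0.00161), or 2.97-fold, was the smallest among the 8 called. Chat gave few counts, 1 and 2 in ΔNFκB DSS mice and 10 and 8 in ΔNFκB untreated mice. Over the pair of libraries its normalised level was 4.67-fold lower, with a 95% exact counting interval of 1.36 to 24.8, and the call (adjusted p = 0.0272) was lost with DESeq2 (0.214), without a count filter (0.0524), with a term for sex (0.159) and without either ΔNFκB DSS replicate (0.155 and 0.0818).

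All 5 general neuronal genes fell. Stmn2 was at 1.64 and 0.824 CPM in ΔNFκB DSS mice and at 11.0 and 10.2 CPM in ΔNFκB untreated mice, a log2 fold change of -3.09 ± 0.29 (adjusted p = 0.000289). Uchl1 was at 0.820 and 1.13 CPM in ΔNFκB DSS mice and at 8.75 and 8.30 CPM in ΔNFκB untreated mice, a log2 fold change of -3.11 ± 0.30 (adjusted p = 0.000315). These were 8.51-fold and 8.65-fold decreases, and neither gene's groups came near each other. The exons of Uchl1 share 18.1% of their bases with Uchl1os on the other strand, and the strand setting of the counting is not given in the sources used here, so its reads cannot be fully told from those of the antisense transcript. Tubb3 was at 1.33 and 0.618 CPM in ΔNFκB DSS mice and at 7.26 and 6.67 CPM in ΔNFκB untreated mice, with a log2 fold change of -2.82 ± 0.39 (adjusted p = 0.00128).

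Prph was at 1.43 and 1.03 CPM in ΔNFκB DSS mice and at 9.94 and 4.47 CPM in ΔNFκB untreated mice, with a log2 fold change of -2.54 ± 0.52 (adjusted p = 0.00723). Elavl4 was at 1.13 and 0.618 CPM in ΔNFκB DSS mice and at 3.47 and 3.17 CPM in ΔNFκB untreated mice, with -1.91 ± 0.40 (adjusted p = 0.00732). The untreated mice differed from each other by more for Prph than for any other general neuronal member, yet the groups did not overlap for either gene. With a term for sex, Prph, Elavl4 and Chat were no longer past the threshold (adjusted p = 0.13, 0.0856 and 0.159), which left 5 members called, and 5 were also left without ΔNFκB DSS replicate 2. The term for sex carries the difference between the 2 WT untreated mice over to ΔNFκB mice, and it cannot separate sex from DSS there. Among the 9 members the developmental receptor Ret was the exception to the falls. It was at 7.58 and 5.46 CPM in ΔNFκB DSS mice and at 9.78 and 8.54 CPM in ΔNFκB untreated mice, and its log2 fold change of -0.49 ± 0.25 did not pass (adjusted p = 0.159).

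In WT mice the same DSS course left 8 of the 9 members without a call, and Ret rose. The share of all genes past the threshold in this comparison was 36.0% in either direction and 17.2% upward, and the median was 0.16 over the members against 0.00 over all genes. Ret was at 36.4 and 25.3 CPM in WT DSS mice and at 9.82 and 11.5 CPM in WT untreated mice. The groups were well separated, and the log2 fold change was 1.53 ± 0.23 (adjusted p = 0.00212), or 2.88-fold. Vip was at 22.8 and 61.1 CPM in WT DSS mice and at 25.4 and 23.5 CPM in WT untreated mice, so that 1 treated mouse matched the untreated ones and the other was far above them. Its log2 fold change of 0.78 ± 0.37 did not pass (adjusted p = 0.127), but it did without WT DSS replicate 1 (1.31, adjusted p = 0.00225) and without a count filter (0.78, adjusted p = 0.0473).

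Nos1 was at 27.2 and 33.1 CPM in WT DSS mice and at 21.2 and 27.3 CPM in WT untreated mice, a log2 fold change of 0.31 ± 0.20 (adjusted p = 0.241). Chat was at 0.773 and 0.824 CPM in WT DSS mice, from 8 and 9 counts, and at 0.878 and 0.939 CPM in WT untreated mice, from 11 and 14 counts. Its adjusted p was 0.761, at a depth too low to show any but a large change. Stmn2 was the general neuronal gene with the lowest value in WT mice, with 8.79 and 8.15 CPM after DSS and 12.2 and 11.3 CPM untreated (-0.47 ± 0.23, adjusted p = 0.138). Both treated mice lay below both untreated mice for Stmn2 and Chat, and the groups of Nos1 overlapped. Uchl1, Tubb3, Elavl4 and Prph had log2 fold changes of -0.16 to 0.33 in WT mice, with adjusted p of 0.427 to 0.872 and overlapping groups. For Tubb3 the mice were at 6.18 and 10.2 CPM after DSS and 6.31 and 6.71 CPM untreated. For Elavl4 they were at 4.15 and 6.87 CPM after DSS and 5.83 and 6.51 CPM untreated. In both genes WT DSS replicate 1 was the lowest and WT DSS replicate 2 the highest of the 4 mice. Uchl1 was at 6.86 and 7.97 CPM in WT DSS mice and at 5.99 and 8.25 CPM in WT untreated mice. Prph was at 6.47 and 11.7 CPM in WT DSS mice and at 6.39 and 9.86 CPM in WT untreated mice.

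**Figure D2:**
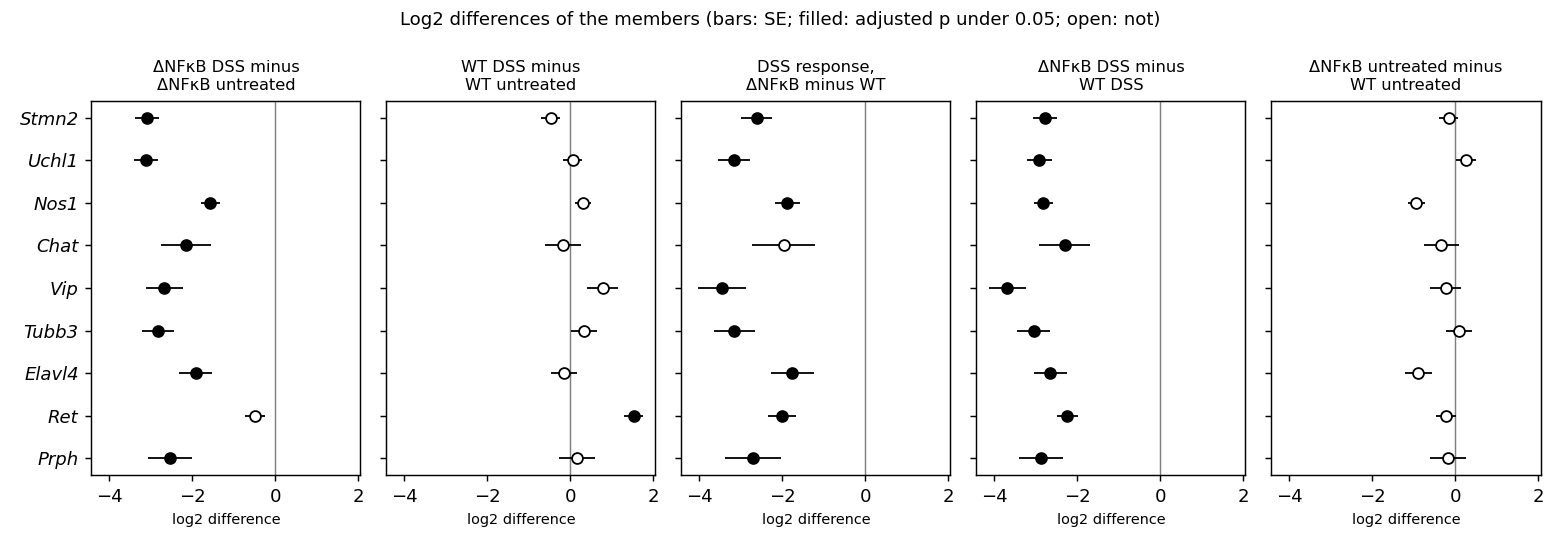
Log2 differences of the 9 members in the 5 comparisons, with bars for the SE and filled points where the adjusted p was under 0.05. Points are filled for 8 members in the ΔNFκB DSS comparison with ΔNFκB untreated, 1 in WT mice, 8 in the difference of the responses, 9 between the DSS groups and 0 between the untreated groups.

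The difference of the DSS responses, ΔNFκB minus WT, was tested directly as an interaction, and it lay below 0 past the threshold for 8 of the 9 members, where 9.07% of all genes tested did so (17.7% in either direction). The median difference was -2.61 over the members and -0.05 over all genes. The difference farthest below 0 was that of Vip, whose response was -2.68 in ΔNFκB mice and 0.78 in WT mice, a difference of -3.46 ± 0.58 (adjusted p = 0.0108). It rested on WT DSS replicate 2, without which it was -2.57, against -3.05 for Uchl1. In the fit of all libraries Uchl1 and Tubb3 had differences of -3.17 ± 0.38 and -3.15 ± 0.50 (adjusted p = 0.00567 and 0.00945). Ret, which did not pass in ΔNFκB mice on its own, differed by -2.02 ± 0.34 (adjusted p = 0.011), its response being -0.49 in ΔNFκB mice and 1.53 in WT mice. Chat differed by -1.96 ± 0.76 and was the member that did not pass (adjusted p = 0.108). Elavl4, at -1.75 ± 0.51 (adjusted p = 0.0476), and Prph, at -2.70 ± 0.68 (adjusted p = 0.0318), lost the call with limma-voom (0.0711 and 0.072), with a sex term (0.0756 and 0.0525) and without most single libraries, and Elavl4 also with DESeq2 (0.094) and with the replicate number as a block (0.0616). Without ΔNFκB DSS replicate 2 the call was left to 3 members, Stmn2, Uchl1 and Tubb3.

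Set directly against WT DSS mice, ΔNFκB DSS mice had less of all 9 members, where 11.7% of all genes tested were lower (20.0% passed in either direction). The log2 fold changes ran from -2.24 to -3.69, the median was -2.82 against 0.03 over all genes, and in all 9 both ΔNFκB mice lay below both WT mice. Again, the share of all genes that separated so was not counted. This comparison shares the ΔNFκB DSS mice with the first one described, so the counts are not independent of each other. All 4 of its mice were female. Vip had the widest gap, 12.9-fold, with 3.18 and 3.30 CPM in ΔNFκB DSS mice and 22.8 and 61.1 CPM in WT DSS mice (-3.69 ± 0.45, adjusted p = 0.00296), and without WT DSS replicate 2 its log2 fold change was -2.80 (adjusted p = 0.00258), about level with that of Stmn2 (-2.82). Nos1, at 4.71 and 3.81 CPM in ΔNFκB DSS mice and 27.2 and 33.1 CPM in WT DSS mice, was 7.06-fold lower (-2.82 ± 0.23, adjusted p = 0.00115). Ret, at 7.58 and 5.46 CPM in ΔNFκB DSS mice and 36.4 and 25.3 CPM in WT DSS mice, was 4.72-fold lower (-2.24 ± 0.24, adjusted p = 0.00257). Transmitter genes of the inhibitory neurons and the developmental receptor were thus both called.

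For the general neuronal members the same comparison gave 6.82-fold for Stmn2, 7.52-fold for Uchl1, 8.30-fold for Tubb3, 6.26-fold for Elavl4 and 7.33-fold for Prph, all lower in ΔNFκB DSS mice, with adjusted p of 0.00218 to 0.00932. Chat had 3 counts over the ΔNFκB DSS libraries and 17 over the WT DSS libraries, and its normalised level was 5.18-fold lower with a 95% exact counting interval of 1.5 to 27.6. Its adjusted p was 0.0343 and rose to 0.0506 with the replicate number as a block, 0.0554 with limma-voom, 0.231 with DESeq2, and 0.104 to 0.160 when any 1 of the 4 libraries was left out. Elavl4 and Prph also lost their calls without ΔNFκB DSS replicate 2 (adjusted p = 0.0537 and 0.0951), and Prph without WT DSS replicate 2 (0.0584). The other 6 members kept theirs with each of the 4 libraries left out.

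Without DSS the genotypes gave no call among the 9 members, where 0.388% of all genes tested passed in either direction. At an unadjusted p under 0.05 there were 2, Nos1 and Elavl4. Nos1 was at 14.2 and 11.1 CPM in ΔNFκB untreated mice and at 21.2 and 27.3 CPM in WT untreated mice, with a log2 fold change of -0.94 ± 0.20 (adjusted p = 0.12). DESeq2 and the fit without a count filter each called this 1 member (-0.96, adjusted p = 0.0285, and -0.99, adjusted p = 0.0196). Elavl4 was at 3.47 and 3.17 CPM in ΔNFκB untreated mice and at 5.83 and 6.51 CPM in WT untreated mice, with a log2 fold change of -0.89 ± 0.32 (adjusted p = 0.248). The ΔNFκB mice lay wholly below the WT mice for 6 of the 9 members (Nos1, Elavl4, Stmn2, Chat, Vip and Ret) and wholly above for 1, Uchl1. How many of all genes separated in this way was not counted, so these counts only describe the members. The members other than Nos1 and Elavl4 had log2 fold changes of -0.33 to 0.26, none of them called by any of the alternatives.

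Levels were set beside each other per kilobase of merged exons, the only scale here on which genes of different length compare. In WT untreated mice Vip came first, with a mean of 7.19 CPM per kb, followed by Uchl1 (4.36), Prph (4.06), Tubb3 (3.48), Nos1 (2.18), Stmn2 (2.1), Ret (1.58), Elavl4 (1.14) and Chat (0.193). Between mice the values of Uchl1 and Prph overlapped, as did those of Prph and Tubb3 and those of Nos1 and Stmn2, while Vip at the top and Ret, Elavl4 and Chat at the bottom were separate from their neighbours. In ΔNFκB DSS mice Ret (0.964), Vip (0.951), Prph (0.616), Uchl1 (0.598) and Tubb3 (0.522) came before Nos1 (0.382), Stmn2 (0.220), Elavl4 (0.162) and Chat (0.0328). There the mice of Ret overlapped with those of Vip. Prph overlapped with Uchl1, Uchl1 with Tubb3, Tubb3 with Nos1, and Stmn2 with Elavl4, while Chat stood apart. Ret was the seventh in WT untreated mice, the sixth in ΔNFκB untreated mice, and in WT DSS mice, where its mean was 4.56 CPM per kb, about level with Prph (4.55) and Uchl1 (4.54), whose mice overlapped with its own, and below Vip (12.3). Per kilobase of the longest transcript Vip was first and Chat last in all 4 groups.

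**Figure D3:**
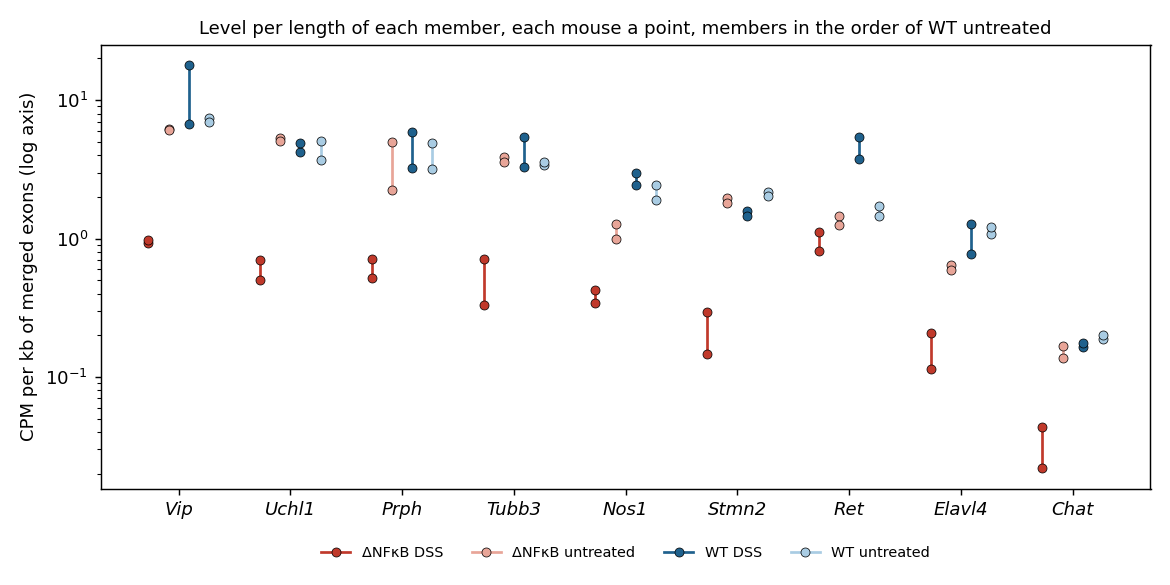
CPM per kilobase of merged exons on a log axis, each point a mouse, with the 2 mice of a group joined. Members stand in the order of their mean in WT untreated mice, and in each member the ΔNFκB DSS points are below those of the other groups.

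The shares of Ret, Stmn2 and Tubb3 in the summed CPM of the members separated the DSS mice from the untreated mice. Shares of the same sum are tied, so a larger share of Ret leaves less for the other members. Ret made up 34.6% and 32.1% of the summed CPM of the members in ΔNFκB DSS mice, 11.4% and 11.6% in ΔNFκB untreated mice, 30.4% and 15.3% in WT DSS mice, and 10.4% and 10.9% in WT untreated mice. The CPM ratio of Ret to Stmn2 was 4.63 and 6.63 in ΔNFκB DSS mice and 0.892 and 0.840 in ΔNFκB untreated mice, and 4.14 and 3.10 in WT DSS mice and 0.804 and 1.02 in WT untreated mice. Stmn2 made up 7.48% and 4.85% in ΔNFκB DSS mice, 12.7% and 13.8% in ΔNFκB untreated mice, 7.34% and 4.94% in WT DSS mice, and 13.0% and 10.7% in WT untreated mice. Tubb3 made up 3.64% to 6.15% in the 4 DSS mice and 6.33% to 9.05% in the 4 untreated mice. The ratio of Ret to Stmn2 was higher in all 4 DSS mice than in all 4 untreated mice, and so was that of Nos1 to Stmn2, at 2.88 to 4.63 in DSS mice and 1.10 to 2.41 in untreated mice. Nos1 relative to Vip was 1.48 and 1.16 in ΔNFκB DSS mice, 0.677 and 0.541 in ΔNFκB untreated mice, 1.19 and 0.541 in WT DSS mice and 0.837 and 1.16 in WT untreated mice. This ratio separated the treatments in ΔNFκB mice and not in WT mice. These ratios compare samples with each other and were not tested.

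Other genes of neurons were counted to see how far the 9 members stood for their cell type. For these and the later lists the shares over all genes tested are those given above. With DSS, 19.2% fell in ΔNFκB mice, while 17.2% rose and 36.0% passed in either direction in WT mice. Between the DSS groups 11.7% were lower, and 9.07% lay below 0 for the difference of the responses. Of 34 further genes of the neuronal cytoskeleton, synapse and RNA-binding proteins 31 were tested, and 20 fell and 1 rose in ΔNFκB DSS mice against ΔNFκB untreated mice (median -1.90). In WT DSS mice against WT untreated mice 3 fell and 2 rose (median -0.12), and in ΔNFκB DSS mice against WT DSS mice 17 were lower and 0 higher (median -1.76). Syt1, the calcium sensor of synaptic vesicle release, had log2 fold changes of -2.73 ± 0.32 with DSS in ΔNFκB mice (adjusted p = 0.000651) and -0.45 ± 0.26 in WT mice (adjusted p = 0.209). Map1b, a microtubule-associated protein of axons, was lower in ΔNFκB DSS mice than in WT DSS mice by -1.61 ± 0.21 (adjusted p = 0.00335). The response of 14 of the 31 differed between genotypes, all 14 below 0.

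Of 13 neuronal receptor and channel genes tested out of 19, 11 fell with DSS in ΔNFκB mice and 0 rose (median -1.90), 2 fell and 0 rose in WT mice (median -0.56), and 6 were lower and 0 higher in ΔNFκB DSS than in WT DSS mice (median -1.89). Htr3a, a subunit of the ion channel opened by serotonin, was at 1.23 and 0.309 CPM in ΔNFκB DSS mice, 7.10 and 4.23 CPM in ΔNFκB untreated mice, 7.44 and 9.80 CPM in WT DSS mice, and 5.11 and 5.16 CPM in WT untreated mice. It fell in ΔNFκB mice (-2.86 ± 0.50, adjusted p = 0.00363), and its response differed from that of WT mice by -3.61 ± 0.64 (adjusted p = 0.0128). Chrna5, Htr3b and Npy2r had no count in either ΔNFκB DSS library, where 3 counts correspond to 0.307 and 0.309 CPM. Scn10a had none in any library.

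The transmitter genes outside the 9 members did not all follow. Of 14 tested out of 20, 7 fell and 1 rose with DSS in ΔNFκB mice (median -1.76), 3 fell and 3 rose in WT mice (median 0.61), and 8 were lower and 1 higher in ΔNFκB DSS than in WT DSS mice (median -2.44). Penk, the precursor of enkephalins, was at 1.64 and 0.824 CPM in ΔNFκB DSS mice, 7.02 and 9.11 CPM in ΔNFκB untreated mice, 17.7 and 33.2 CPM in WT DSS mice, and 7.51 and 11.6 CPM in WT untreated mice. It fell in ΔNFκB mice (-2.70 ± 0.47, adjusted p = 0.00332) and rose in WT mice (1.41 ± 0.35, adjusted p = 0.017), with a difference of -4.11 ± 0.59 (adjusted p = 0.00764). The fall was not called with a sex term (adjusted p = 0.0671), nor the rise without WT untreated replicate 1 (0.0752) or WT DSS replicate 2 (0.88, adjusted p = 0.134). Its exons share 14.3% of their bases with another gene.

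Tac1, the precursor of substance P, went the other way. It was at 92.3 and 62.9 CPM in ΔNFκB DSS mice, 7.97 and 7.89 CPM in ΔNFκB untreated mice, 28.4 and 47.2 CPM in WT DSS mice, and 8.22 and 15.6 CPM in WT untreated mice. It rose in ΔNFκB mice (3.29 ± 0.36, adjusted p = 0.000521) and in WT mice (1.66 ± 0.34, adjusted p = 0.00765), and the difference of 1.63 ± 0.48 did not pass (adjusted p = 0.0512). It passed with DESeq2 (0.0041), without a count filter (0.00509), with a sex term (0.0178) and without WT untreated replicate 1 (0.0213), and the rise in WT mice was not called without WT DSS replicate 2 (0.0531). Npy, Calca, Slc17a6 and Slc6a2 had no count in either ΔNFκB DSS library. The medians of both lists were the same with the 1 tested gene at 0 counts set to the bound that 3 counts over a group allow.

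Of the genes of GDNF and endothelin signalling and of the neural crest, 18 of 20 were tested. With DSS 6 fell and 0 rose in ΔNFκB mice (median -0.50), 2 rose and 0 fell in WT mice (median 0.59), and 9 were lower and 0 higher in ΔNFκB DSS than in WT DSS mice (median -1.35). Gfra1, the co-receptor through which GDNF reaches Ret, was at 1.02 and 0.515 CPM in ΔNFκB DSS mice, 5.13 and 7.0 CPM in ΔNFκB untreated mice, 4.73 and 5.68 CPM in WT DSS mice, and 6.15 and 6.37 CPM in WT untreated mice. It fell in ΔNFκB mice (-2.96 ± 0.36, adjusted p = 0.000759), whereas Ret itself did not pass there. Hand2, a transcription factor of the enteric neuron lineage that is also made in gut mesenchyme, was lower in ΔNFκB DSS than in WT DSS mice by -2.30 ± 0.21 (adjusted p = 0.00154). Its exons share 19.6% of their bases with Hand2os1.

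Among paralogs of the members, 22 of 26 were tested, and with DSS in ΔNFκB mice 8 fell and 4 rose (median -1.13). In ΔNFκB DSS against WT DSS mice 7 were lower and 5 higher (median -1.26), and in WT DSS against WT untreated mice 4 fell and 3 rose (median -0.13). The share of the paralogs called in WT mice was near that of all genes tested, 36.0% in either direction. The inducible nitric oxide synthase Nos2 rose in both genotypes, with 385.6 and 763.8 CPM in ΔNFκB DSS mice and 0.552 and 1.55 CPM in ΔNFκB untreated mice, and with 595.2 and 447.3 CPM in WT DSS mice and 0.798 and 6.24 CPM in WT untreated mice. Nos1 and Nos2 therefore differed in direction in ΔNFκB mice, where Nos2 had a log2 fold change of 9.09 ± 0.83 (adjusted p = 0.00027). Stmn1, a stathmin of dividing cells, was at 47.7 and 49.0 CPM in ΔNFκB DSS mice and at 28.4 and 24.9 CPM in WT DSS mice, higher by 0.86 ± 0.15 (adjusted p = 0.0075), a call lost without replicate 2 of the WT DSS group (0.0618) or of the ΔNFκB DSS group (0.0682). Stmn2 was lower in the same mice.

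Genes by which the gut wall receives these transmitters were lower as well. Of 16 tested out of 17, 14 fell and 0 rose with DSS in ΔNFκB mice (median -1.74), 4 fell and 1 rose in WT mice (median -0.36), and 12 were lower and 0 higher in ΔNFκB DSS than in WT DSS mice (median -1.51). Chrm2, a muscarinic acetylcholine receptor of smooth muscle, fell in both, by -2.11 ± 0.19 in ΔNFκB mice (adjusted p = 0.000243) and by -1.08 ± 0.17 in WT mice (adjusted p = 0.00283). Prkg1, the kinase through which cyclic GMP relaxes muscle after nitric oxide, was at 2.25 and 3.50 CPM in ΔNFκB DSS mice and at 12.4 and 10.3 CPM in WT DSS mice, and its response differed by -2.02 ± 0.38 (adjusted p = 0.0145). Tacr1, the substance P receptor, was at 3.07 and 2.99 CPM in ΔNFκB DSS mice, 6.39 and 3.99 CPM in ΔNFκB untreated mice, 22.2 and 28.6 CPM in WT DSS mice, and 4.47 and 4.02 CPM in WT untreated mice. It rose in WT mice (2.58 ± 0.26, adjusted p = 0.000362) and had the smallest p of this list for the difference between genotypes (-3.35 ± 0.38, adjusted p = 0.00488).

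The neuronal genes did not move alone, since the levels of other cells of the gut wall differed between the same libraries. Smooth muscle markers summed to 1389 and 1404 CPM in ΔNFκB DSS mice, 7680 and 7978 CPM in ΔNFκB untreated mice, 2063 and 1664 CPM in WT DSS mice, and 9338 and 4963 CPM in WT untreated mice. With DSS all 15 of them fell in ΔNFκB mice and 14 of 15 in WT mice, and 3 of 15 were lower in ΔNFκB DSS than in WT DSS mice. Muscle markers thus fell in both genotypes, while the members were called lower in ΔNFκB mice. Per 1000 CPM of smooth muscle markers, the members made up 15.8 and 12.1 CPM in ΔNFκB DSS mice, 11.2 and 9.24 in ΔNFκB untreated mice, 58.0 and 99.2 in WT DSS mice, and 10.1 and 21.4 in WT untreated mice. On this scale ΔNFκB DSS mice were at the level of untreated mice and WT DSS mice were above all others.

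With the libraries scaled to the summed smooth muscle markers, the direction of several results turned. In ΔNFκB mice 0 members were then lower with DSS past the threshold and 2 were higher, Nos1 (0.91, adjusted p = 0.0493) and Ret (1.99, adjusted p = 1.77e-05), and in WT mice all 9 were higher, from 1.35 for Stmn2 to 3.29 for Ret. Of all genes tested, 87.2% were then higher and 0.742% lower with DSS in ΔNFκB mice, and 87.7% were higher in WT mice, close to the share of the members there. Under this scaling the median over all genes moved to 2.44 in ΔNFκB mice and 1.83 in WT mice. Relative to that shift the members' values in ΔNFκB mice, -0.64 to 1.99, lay below the median of all genes. Against WT DSS mice, where the median over all genes was 0.43, the scaling left 8 of the 9 members lower in ΔNFκB DSS mice, with -1.81 for Ret to -3.36 for Vip, and Chat not called (-1.95, adjusted p = 0.227), where 4.90% of all genes were lower. The difference of the responses was below 0 past the threshold for 3 of 9 (Uchl1 -2.46, Vip -2.87 and Tubb3 -2.52), and for 1.64% of all genes.

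**Figure D4:**
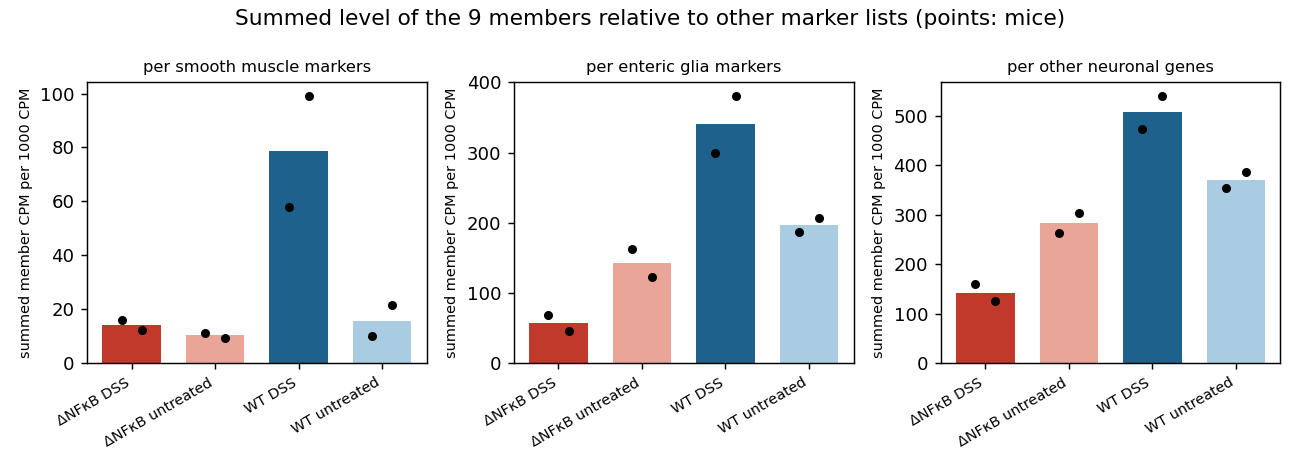
Summed CPM of the 9 members per 1000 CPM of smooth muscle markers, enteric glia markers and other neuronal genes, with bars for the mean of 2 mice and points for the mice. Relative to muscle the ΔNFκB DSS mice sit with the untreated mice (12.1 and 15.8) and the WT DSS mice above them (58.0 and 99.2), and relative to glia and other neuronal genes the ΔNFκB DSS mice are the lowest. Of the other neuronal genes, 17 of 31 tested were lower between the DSS groups. Their sum also holds genes that hardly differed there, such as Vamp2 (-0.004 ± 0.12) and Mapt (-0.07 ± 0.24).

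Enteric glia, which surround the neurons in both plexuses, were also lower. Their 15 markers summed to 323.6 and 374.1 CPM in ΔNFκB DSS mice, 531.1 and 606.4 CPM in ΔNFκB untreated mice, 399.7 and 433.5 CPM in WT DSS mice, and 504.7 and 513.8 CPM in WT untreated mice, and Foxd3 had no count in ΔNFκB DSS mice. Of 12 tested, 7 fell with DSS in ΔNFκB mice (median -1.24), 1 fell and 1 rose in WT mice, and 4 were lower in ΔNFκB DSS than in WT DSS mice (median -1.23). Cdh19, an adhesion protein of glia, was at 0.820 and 1.44 CPM in ΔNFκB DSS mice and at 5.70 and 7.51 CPM in WT DSS mice (-2.54 ± 0.33, adjusted p = 0.00332). Gfap, an intermediate filament that rises in reactive glia, was at 1.64 and 1.13 CPM in ΔNFκB DSS mice and at 10.8 and 13.2 CPM in WT DSS mice (-3.10 ± 0.41, adjusted p = 0.00332). Gfap rose with DSS in WT mice (1.97 ± 0.36, adjusted p = 0.00475) and was not called in ΔNFκB mice (0.21 ± 0.46, adjusted p = 0.762). Per 1000 CPM of glia markers the members made up 67.7 and 45.5 CPM in ΔNFκB DSS mice, 162 and 122 in ΔNFκB untreated mice, 299 and 381 in WT DSS mice, and 186 and 206 in WT untreated mice, so the ΔNFκB DSS mice were the lowest also relative to glia.

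Pacemaker cell markers summed to 273.2 and 245.8 CPM in ΔNFκB DSS mice, 480.6 and 541.6 CPM in ΔNFκB untreated mice, 287.2 and 277.9 CPM in WT DSS mice, and 536.0 and 502.2 CPM in WT untreated mice. Of 7 tested, 4 fell with DSS in ΔNFκB mice, 3 fell and 1 rose in WT mice, and 4 were lower in ΔNFκB DSS than in WT DSS mice. All 8 fibroblast markers were lower in ΔNFκB DSS than in WT DSS mice (median -1.82), with sums of 741.7 and 592.8 CPM in ΔNFκB DSS mice and 1968 and 3007 CPM in WT DSS mice. Epithelial markers summed to 15380 and 14580 CPM in ΔNFκB DSS mice and to 8746 and 8747 CPM in WT DSS mice, and 6 of 11 were higher and 1 lower. Leukocyte markers summed to 473.0 and 315.8 CPM in ΔNFκB DSS mice and to 853.8 and 714.9 CPM in WT DSS mice, with 3 of 16 lower. Mesothelial markers summed to 3.18 and 0.515 CPM in ΔNFκB DSS mice and to 33.5 and 23.4 CPM in WT DSS mice. Adipocyte markers summed to 1.13 and 1.75 CPM in ΔNFκB DSS mice and to 14.2 and 22.2 CPM in WT DSS mice. The WT untreated mice were far apart, at 0.639 and 24.1 CPM for mesothelial and 22.8 and 103.9 CPM for adipocyte markers. The part of these differences in cell make-up in the neuronal result was not tested.

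**Figure D5:**
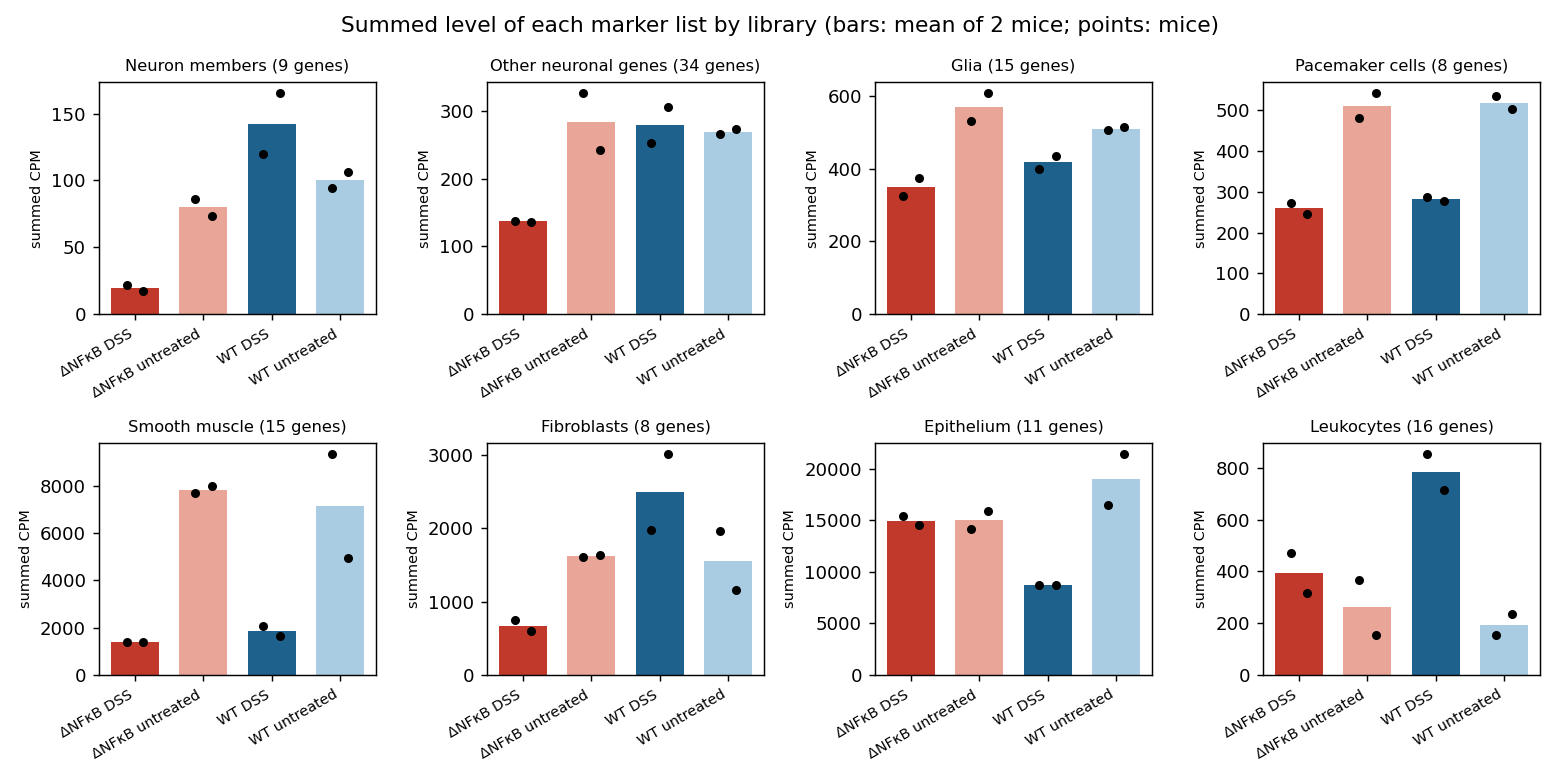
Summed CPM of the markers of each cell type, on linear axes of their own, with bars for the mean of 2 mice and points for the mice. Smooth muscle and pacemaker markers are low in both DSS groups, whereas the neuron members and fibroblast markers are low in ΔNFκB DSS mice and not in WT DSS mice.

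Some genes marking neurons are also made by endocrine or tuft cells of the epithelium, so their lists were set beside the members. Of 12 enteroendocrine markers tested, 2 fell and 0 rose with DSS in ΔNFκB mice, 5 fell and 1 rose in WT mice, and 1 was lower in ΔNFκB DSS than in WT DSS mice. Their sums were 191.3 and 147.6 CPM in ΔNFκB DSS mice and 201.7 and 148.4 CPM in WT DSS mice, which overlap. The share of these markers that fell in ΔNFκB mice was near that of all genes tested, 19.2%. Of 7 tuft cell markers tested, 4 fell in ΔNFκB mice with DSS, and 3 were lower and 0 higher in ΔNFκB DSS than in WT DSS mice. The sums of the tuft cell list were 37.9 and 32.4 CPM in ΔNFκB DSS mice and 85.7 and 109.2 CPM in WT DSS mice. The 3 lower genes were Alox5ap (-2.19 ± 0.27), Dclk1 (-2.04 ± 0.25) and Ptgs1 (-1.49 ± 0.29). Hpgds (-0.82), Avil (-0.13), Sh2d6 (0.95 ± 1.03) and Trpm5 (1.09 ± 1.03) were not called, so the list did not move as a whole. Pou2f3, Il25 and Gfi1b had no count in either DSS group. Chat is made by tuft cells too, and the part of these cells in its level was not tested.

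The 10 genes outside the list whose log2 CPM over the 8 libraries followed the mean of the members most closely were Cdh2, Ank2, Kif5a, Slc7a14, Zfhx4, Nsg1, Rab3c, Adgrb3, Mapk10 and Rab6b. Likeness was the root mean square difference between profiles centred on their own means, which was 0.137 log2 units for Cdh2, encoding N-cadherin, and 0.231 for Rab6b. The members themselves lay at 0.251 (Elavl4) to 0.767 (Ret) from that mean, which each of them helped to set. Kif5a, a motor of axonal transport, had log2 fold changes of -2.33 with DSS in ΔNFκB mice and 0.02 in WT mice. Ank2, an ankyrin of neuronal and muscle membranes, had -1.87 and 0.17. The genes were picked by this likeness, so their values are a description.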

How the data were processed

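TruSeq libraries of total RNA from the distal colon of 8 mice were sequenced in pairs on a HiSeq X, per the labels' protocols. The submitters' processing notes name HISAT2 2.1, SAMtools 1.8, featureCounts, Subread 1.6.2 and mm10, while the sources used here give neither annotation release nor strand setting. The authors deposited 2 tables of expected counts without normalization, by symbol and by Ensembl ID, with 55536 lines each and 0 differing values. Since 18.8% of nonzero values were not whole, at exact equality, and the plan had assumed counts, they were rounded. Lines of the same symbol were summed (115 symbols, none a member). All 55536 identifiers matched the GENCODE annotation of GRCm38, the source of lengths and overlaps.

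Groups follow the labels, 2 mice each. The labels do not say more on how separate the mice were, so p-values measure the spread between these samples. After filterByExpr and TMM scaling, edgeR's quasi-likelihood model with 1 mean per group (8 libraries, 4 residual degrees of freedom, biological coefficient of variation 17.1%) gave two-sided tests, adjusted by Benjamini-Hochberg over 17522 genes. The SE was taken as the size of the log2 fold change over the root of its F statistic. With 2 mice against 2, an exact permutation test reaches p = 0.333 at best, and none is given. Floors of 3 counts and 95% exact intervals cover counting error only. R 4.3.3 was used with edgeR 4.0.16, DESeq2 1.42.0 and limma 3.58.1, and the model was tested on simulated data.

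The members and gene lists were chosen with earlier results of these data known. Named genes are the 9 members, up to 4 per list and comparison by smallest p, list genes without counts, paralogs, and the 10 nearest profiles. The tuft cell markers tested between the DSS groups, and Vamp2 and Mapt, are named besides. Of skeletal muscle, mesothelial and adipocyte markers 0 of 5, 1 of 4 and 1 of 4 tested were lower in ΔNFκB DSS than in WT DSS mice, and 0 higher. Their median log2 fold changes were -0.62, -2.83 and -3.10, with genes at 0 counts set to the bound of 3 counts. Replicate numbers were not taken as pairs, since deviations of the same number correlated at -0.126 to 0.244. The alternatives were other size factors (RLE, upper quartile), other tools (DESeq2, limma-voom), other filters (none, or 1 CPM in 2 libraries), the other table, a replicate block, a fit on the compared groups alone, a term for sex, scaling without antigen receptor, mitochondrial and ribosomal RNA genes, scaling to smooth muscle markers, and leaving out single libraries, where the lone mouse is assumed to vary like the others.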

Additional observations from a re-analysis of the deposited data

Results flagged for a closer look

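The DSS responses of the genotypes differed by the interaction test, ΔNFκB minus WT on the log2 scale, for 8 of the 9 members. The differences were -2.61 for Stmn2, -3.17 for Uchl1, -1.88 for Nos1 and -3.46 for Vip. They were -3.15 for Tubb3, -1.75 for Elavl4, -2.02 for Ret and -2.70 for Prph. All 8 kept their direction when scaled to smooth muscle markers, where 3 passed. Groups of 2 were too small for a test for outlying mice.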

How the results depend on the processing

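The count of members called with DSS in ΔNFκB mice was 8, and it was 5 with a sex term, 2 when scaled to smooth muscle markers (both higher), and 5 to 7 with a library left out. In WT mice it was 1, and it was 2 without a count filter, 9 when scaled to smooth muscle markers, and 1 to 2 with a library left out. Between the untreated groups it was 0, and 1 with DESeq2 and without a count filter. For the difference of the responses it was 8, and it was 3 when scaled to smooth muscle markers and 3 to 8 with a library left out. Between the DSS groups all counts were within 1.5 times 9. Calls over all genes moved too. With DSS in ΔNFκB mice 1865 of 17522 genes were lower with a sex term, against 3367 without it. For the difference of the responses 1863 were below 0 with that term, against 1589 without it. The term rests on the 2 WT untreated mice, the only group of both sexes. Without ΔNFκB DSS replicate 2 fewer of all genes were called for the difference. Smooth muscle scaling, which moves all genes, turned the direction in WT mice of Stmn2 (1.35), Chat (1.64), Elavl4 (1.67), Chrm2 (0.82) and Syt1 (1.34), in ΔNFκB mice of Nos1 (0.91), Chat (0.25), Elavl4 (0.56), Ret (1.99), Ank2 (0.61), Chrm2 (0.38) and Kif5a (0.14), and between the untreated groups of Uchl1 (-0.07) and Tubb3 (-0.18). It also ended the calls with DSS in ΔNFκB mice of Gfra1 (-0.48), Htr3a (-0.40), Penk (-0.22) and Syt1 (-0.26), that of Map1b between the DSS groups (-1.22) and that of Prkg1 for the difference (-1.42). Values not called changed sign with a library left out. In WT mice Vip ran from -0.11 to 1.31, Tubb3 from -0.08 to 0.63, Prph from -0.34 to 0.55, Uchl1 from -0.12 to 0.34, Ank2 from -0.06 to 0.35 and Kif5a from -0.36 to 0.30 (-0.02 with limma-voom), each below 0 without WT DSS replicate 2, and Elavl4 ran from -0.58 to 0.14, above 0 without WT DSS replicate 1. Between the untreated groups Prph ran from -0.89 to 0.26. With a replicate block the counts were 8 in ΔNFκB mice, 1 in WT mice, 0 between the untreated groups, 8 between the DSS groups (Chat 0.0506) and 7 for the difference (Elavl4 0.0616). The fit of only the groups compared gives no difference of responses. Causes of these changes were not tested, and Chat, with 1 to 14 counts a library, is limited by depth. Chat failed the count filter in some alternatives, which left 8 members tested there. These were the filter of 1 CPM in 2 libraries, scaling without antigen receptor, mitochondrial and ribosomal RNA genes, and leaving out an untreated library. The fit of only the groups compared also tested 8, except between the untreated groups, where it tested 9.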
